A study of Homo sapiens with 2 samples.

Results

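The miR-29 family of mature microRNAs was followed in Huh7 cells, an established human hepatocellular carcinoma line, after exposure to Y27632. Its members were the 3 array rows whose accessions, MIMAT0000086, MIMAT0000100 and MIMAT0000681, stand in that order for miR-29a-3p, miR-29b-3p and miR-29c-3p, and they make up 3 of the 1001 rows of the table. The Y27632 group was 1 array of cells given 10 µM Y27632, a small-molecule kinase inhibitor, for 12 hours. The control group was 1 array of Huh7 cells whose title names neither a vehicle nor a time of harvest, so a difference in either cannot be told apart from one in Y27632. The labels attach the Y27632 treatment text to both samples, and this array counts as control by its title and source name and by the design text of the series. Both groups were the same line in Dulbecco's medium with serum. A tumour line grown alone holds no stromal cells by design, although the hepatocyte and stromal marker miRNAs were not evaluated here because their accessions could not be paired with names.

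A microRNA is a short RNA that guides a silencing complex to matching sites in messenger RNAs, and the bases at its 5′ end, the seed, contribute most to the match. The miR-29 family is best known as a repressor of extracellular matrix genes: collagen, fibrillin and elastin messages carry sites for its seed. In liver it has been studied mainly in hepatic stellate cells, the collagen-producing cells of fibrosis, and it also targets DNA methyltransferases and the survival factor MCL1, which are the targets most often considered in hepatoma cells. None of these messages was measured here.

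The 3 mature sequences are shown because they share a seed and differ by few bases, and whether their probes tell them apart was not tested. They are given 5′ to 3′ from RefSeq (GRCh38.p14), with the seed, bases 2 to 8, in capitals.
miR-29a-3p: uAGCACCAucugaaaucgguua
miR-29b-3p: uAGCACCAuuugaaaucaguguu
miR-29c-3p: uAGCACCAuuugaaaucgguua

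All 3 members were found by name in the reference, and of its 2370 distinct mature names these 3 alone carry this seed (0.127%). The first 9 bases are identical in all of them. With positions counted from 1 at the 5′ end, miR-29a-3p and miR-29c-3p are both 22 bases long and differ by the single substitution C10U (the base of miR-29a-3p first). From miR-29b-3p to miR-29c-3p the substitutions are A18G, G21U and U22A, and miR-29b-3p is 1 base longer, at 23. From miR-29a-3p to miR-29b-3p there are 4 substitutions, C10U, G18A, U21G and A22U. Base composition hardly separates them, with 9 G or C bases in miR-29a-3p and 8 in each of the other two.

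The family is made from 4 hairpin genes in a pair of clusters, and the hairpins are shown, with the mature 3p arm in capitals, because they explain why 1 row can stand for more than 1 gene.
MIR29A: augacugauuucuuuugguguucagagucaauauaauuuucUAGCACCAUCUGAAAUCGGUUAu
MIR29B1: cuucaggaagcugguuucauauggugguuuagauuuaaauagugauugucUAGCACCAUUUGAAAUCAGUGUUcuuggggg
MIR29B2: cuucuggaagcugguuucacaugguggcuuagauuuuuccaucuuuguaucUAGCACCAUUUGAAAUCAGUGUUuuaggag
MIR29C: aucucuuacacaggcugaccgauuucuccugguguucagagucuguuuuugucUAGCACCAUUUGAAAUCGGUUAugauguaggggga

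MIR29A (chr7:130876747-130876810, minus strand) and MIR29B1 (chr7:130877459-130877539, minus strand) lie 648 bases apart. MIR29C (chr1:207801852-207801939, minus strand) and MIR29B2 (chr1:207802443-207802523, minus strand) lie 503 bases apart, inside MIR29B2CHG, a long noncoding host gene (chr1:207801518-207822703). The reference table lists no host gene across the chromosome 7 pair. The mature miR-29b-3p of MIR29B1 and MIR29B2 is letter for letter the same, so its row cannot say which cluster its signal came from. The miR-29a-3p row belongs to the chromosome 7 cluster alone and the miR-29c-3p row to the chromosome 1 cluster alone.

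All 3 members had a value on both arrays. The values are deposited array intensities, taken as linear, with 1 value per probe and array and no replicate, so none has an error and no test was possible. A brighter probe does not mean a more abundant miRNA, and the ranks below place each probe on its own array only. The Y27632 array listed 614 of the 1001 rows, at a median of 6.1 and a lowest value of 2.7. The control array listed 619, at a median of 6.0 and a lowest value of 2.3.

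miR-29a-3p, the member of the chromosome 7 cluster with a row to itself, read 83.4 on the Y27632 array and 105.0 on the control array. It was well clear of the lower end of both arrays. On the Y27632 array it ranked 71 from the brightest, at 13.7 times the median and above 88.4% of listed probes. On the control array it ranked 61, at 17.5 times the median and above 90.1% of listed probes. The treated value was 0.794 times the control value, a log2 ratio of −0.33.

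miR-29b-3p, the product of both clusters, read 23.3 on the Y27632 array and 31.8 on the control array. This member too lay in the upper part of each array, but nearer the middle. It ranked 137 on the Y27632 array, at 3.82 times the median, and 116 on the control array, at 5.30 times the median. The treated value was 0.733 times the control value, a log2 ratio of −0.45, the ratio farthest from 0 among the 3 members.

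miR-29c-3p, the chromosome 1 member that differs from miR-29a-3p by C10U alone, read 5.9 on the Y27632 array and 4.7 on the control array. Both values were under the median of their array and close to the lowest listed value, at 2.19 times it on the Y27632 array and 2.04 times it on the control array. It ranked 317 of 614 on the Y27632 array and 374 of 619 on the control array. The treated value was 1.26 times the control value, a log2 ratio of 0.33. Values were deposited to 1 decimal, and that rounding alone leaves the ratio anywhere from 0.30 to 0.36, against −0.33 at both ends for miR-29a-3p and −0.45 to −0.44 for miR-29b-3p.

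**Figure D1:**
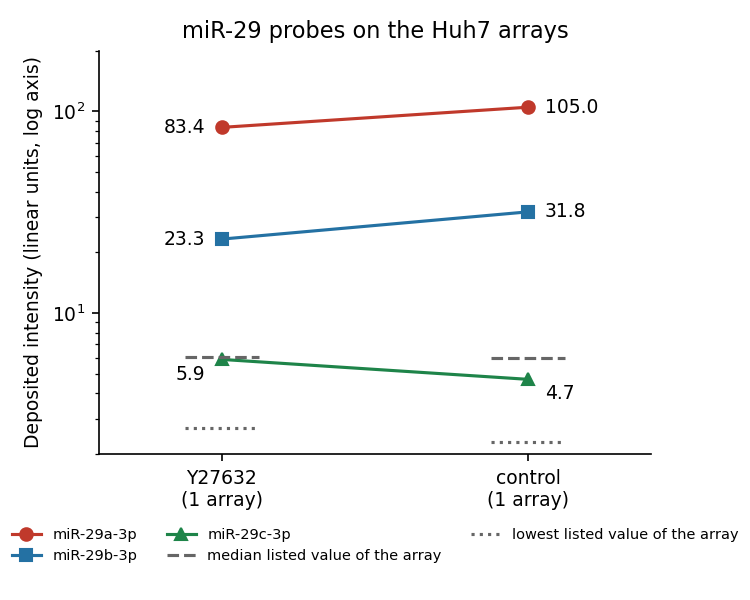
Deposited intensity (log axis) of the 3 miR-29 probes on the Y27632 array, left, and the control array, right, with 1 array each and no error bars. Dashes mark the median (6.1 and 6.0) and dots the lowest listed value (2.7 and 2.3) of each array; miR-29a-3p and miR-29b-3p lie above the median and are lower with Y27632, and miR-29c-3p lies below it and is higher with Y27632.

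How often probes of like intensity were listed on both arrays differed with brightness. On the control array, 28 other probes lay within 1.5-fold of miR-29a-3p and 46 within 1.5-fold of miR-29b-3p, and every one of these was also listed on the Y27632 array. The reverse held for the 31 and 54 probes within 1.5-fold of those members on the Y27632 array, all of which were listed on the control array. Around miR-29c-3p, 82.8% of 227 such probes on the Y27632 array had a control value, and 78.2% of 238 on the control array had a Y27632 value. miR-29c-3p therefore sits in the range of intensity where about 1 probe in 5 is listed on 1 array only.

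The main comparison set Y27632 over control for each member against all probes and then against probes of like brightness. Of the 3 members, 0 were 2-fold or more above control and 0 were 2-fold or more below it. Of the 519 probes listed on both arrays, 2.50% were as far above and 0.578% as far below, 3.08% in all (0.385% of the brighter 50% of them). None was 1.5-fold apart either, where 14.3% of the 519 probes were. That share differs with brightness. Among the 100 probes nearest in brightness to miR-29a-3p, 0 were 1.5-fold or more above control and 1 below. For miR-29b-3p the counts were 1 and 1, and for miR-29c-3p 12 and 12. At such background shares, a count of 0 among 3 members is no result about the family. The median log2 ratio was −0.33 over the 3 members, with 1 above 0 and 2 below, and 0.00 over all 519 probes. Ratios larger in size were seen at 168 of the 519 probes for miR-29a-3p, at 118 for miR-29b-3p and at 172 for miR-29c-3p.

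Those counts mix bright and dim probes, whose ratios scatter differently. The SD of log2 ratios across probes was 0.21 among the 130 brightest of the 519, which include miR-29a-3p and miR-29b-3p, and 0.46 among the 130 probes next above the dimmest 130, which include miR-29c-3p. Each member was therefore set beside the 100 probes nearest in mean log2 intensity, itself left out. Its distance from their median was expressed in robust SDs (the scaled median absolute deviation of the 100 ratios). This spread holds both noise between the arrays and any response to Y27632 among those probes.

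**Figure D2:**
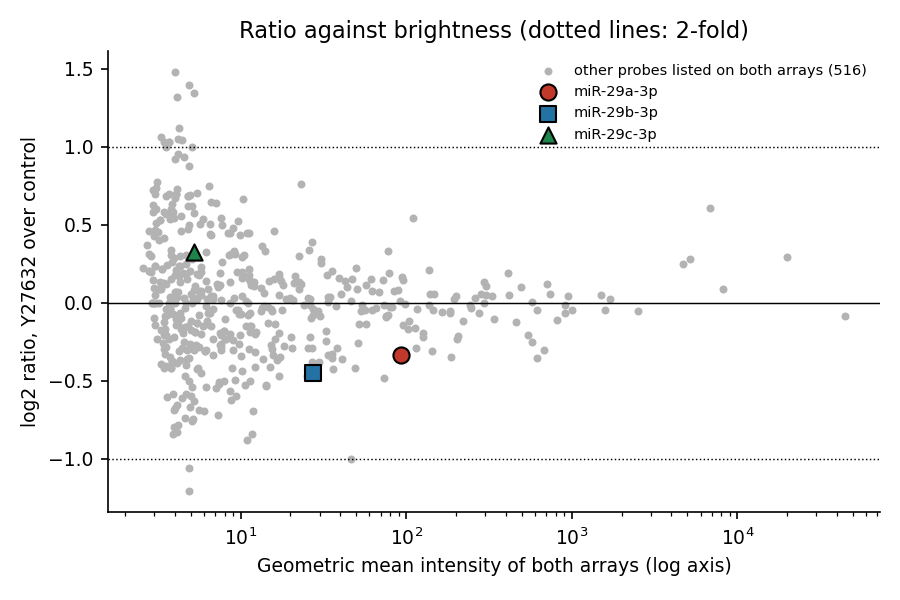
Log2 ratio of Y27632 over control against the geometric mean intensity of both arrays (log axis), 1 point per probe listed on both arrays (519), with dotted lines at 2-fold. The scatter narrows towards bright probes, and miR-29a-3p (−0.33) and miR-29b-3p (−0.45) lie near the lower edge of the points around them while miR-29c-3p (0.33) lies within its cloud.

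miR-29a-3p had a log2 ratio 0.30 below the median of its neighbours, which was −0.03. Their geometric mean intensities ran from 26.4 to 330.4, and 63 were dimmer than the member and 37 brighter. With a robust SD of 0.16, the distance was −1.88 robust SDs. Of the 100 neighbours, 11 had a lower ratio, miR-29b-3p among them, and 89 a higher one. Most of those 11 were in the dim part of this wide window, at geometric means from 27.2 to 49.0. The others were at 73.4 and 187.4. Ratios scatter more among dimmer probes, so this count rests largely on the width of the window. The middle 90% of the neighbours ran from 0.767 to 1.17 times control, and 0.794 for miR-29a-3p falls inside that range, close to its lower end.

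miR-29b-3p had a log2 ratio 0.41 below the median of its neighbours, which was −0.04. Those probes ran from 12.3 to 57.3 in geometric mean intensity, and 44 of them also served as neighbours of miR-29a-3p, so the placings of these members are not separate measurements. The robust SD was 0.27 and the distance −1.55 robust SDs. Only 5 of the 100 had a lower ratio. The middle 90% ran from 0.741 to 1.26 times control, and 0.733 for miR-29b-3p falls just below it.

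miR-29c-3p had a log2 ratio 0.38 above the median of its neighbours, which was −0.05. These 100 probes, from 4.34 to 6.40 in geometric mean intensity, included none of the neighbours of either brighter member. Their robust SD was 0.38, and the distance was 1.003 robust SDs. A higher ratio was seen at 19 of them and a lower one at 81, and 12 lay above control by 1.5-fold or more and 12 below it. The middle 90% ran from 0.618 to 1.84 times control, so 1.26 for miR-29c-3p falls well inside the scatter of dim probes.

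**Figure D3:**
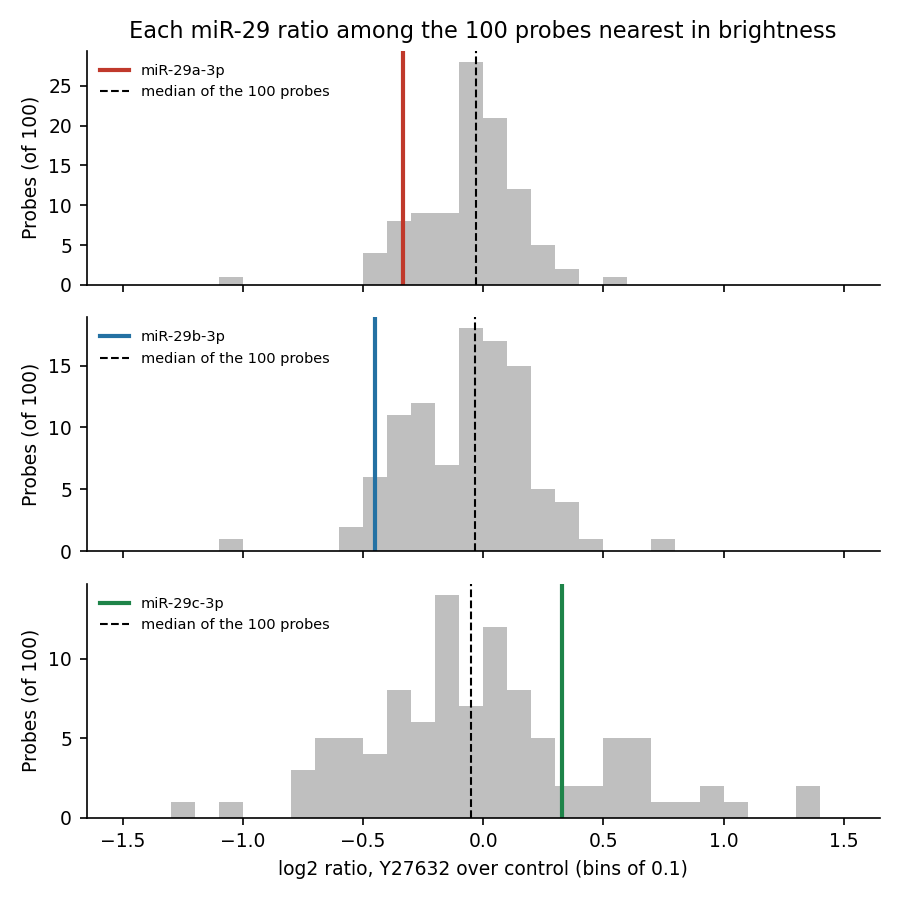
Histograms of the log2 ratio, Y27632 over control, of the 100 probes nearest in brightness to each member (bins of 0.1), with the member as a coloured line and the median of the 100 as a dashed line. miR-29a-3p stands above 11 of its 100 neighbours, miR-29b-3p above 5 and miR-29c-3p above 81.

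When the same distance was computed for each of the 519 probes from its own 100 neighbours, 35 probes lay farther out than miR-29a-3p, in either direction. The number was 75 for miR-29b-3p and 170 for miR-29c-3p. miR-29a-3p had a ratio nearer to 0 than miR-29b-3p but neighbours that scatter less. Which of the pair lay farther out depended on the setting: with 200 neighbours miR-29a-3p was at −1.29 and miR-29b-3p at −1.53 robust SDs, and after quantile normalization they were at −1.81 and −1.92.

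Within the family, the ratios of miR-29a-3p and miR-29b-3p were close, at a log2 difference of 0.12, which is smaller than the robust SD around either. The ratio of miR-29a-3p was lower than that of miR-29c-3p by a log2 difference of −0.66 (1.58-fold between ratios), and that of miR-29b-3p by −0.78 (1.71-fold). The robust SD around miR-29c-3p, 0.38, was the widest among the members. It is a spread across probes and not an error of either difference, and with 1 array per condition neither difference could be tested. miR-29a-3p and miR-29b-3p, which share the chromosome 7 cluster, had ratios on the same side of 0. miR-29b-3p and miR-29c-3p share the chromosome 1 cluster and had ratios on opposite sides of 0. The miR-29b-3p row, which cannot tell the clusters apart, had a ratio like that of miR-29a-3p. That of miR-29c-3p came from a dim probe, 1.003 robust SDs from its neighbours. Whether the ratios follow the clusters was not tested. Whether each probe separates sequences that differ by 1 to 4 bases was not tested, and the sources used here give no probe sequences.

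The probes most like each member over both arrays were found by distance in log2 Y27632 and log2 control intensity, which is a likeness over 2 values only. For miR-29a-3p the nearest read 90.7 with Y27632 and 100.1 in control, at a distance of 0.14, and the log2 ratios of the 3 nearest ran from −0.17 to 0.01. None of these 3 had a ratio as low as its own. For miR-29b-3p the nearest read 23.8 with Y27632 and 31.0 in control, at a distance of 0.05, and the 3 nearest had ratios of −0.38, −0.29 and −0.43. For miR-29c-3p the nearest read 5.6 with Y27632 and 4.6 in control, at a distance of 0.08, and the 3 nearest had ratios of 0.28, 0.19 and 0.11. These probes carry accessions that could not be paired with names, so they are given by value alone. A probe with values nearly equal to those of miR-29b-3p on both arrays was thus at hand, whereas miR-29a-3p had no such close match. Probes were also sparser around miR-29a-3p, with 28 others within 1.5-fold on the control array against 46 around miR-29b-3p. The choice used the same 2 values that give the ratio, so like ratios among close matches follow from it.

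The sign of each log2 ratio, and the order from miR-29b-3p (lowest) through miR-29a-3p to miR-29c-3p (highest), were the same under the 5 alternatives tried for the ratio. The log2 ratio of miR-29a-3p ran from −0.34 to −0.29 over 5 alternatives, that of miR-29b-3p from −0.47 to −0.39 and that of miR-29c-3p from 0.21 to 0.36. A pseudocount of 3 brought miR-29c-3p closest to 0, at 0.21. Lowering the Y27632 values by 0.4, the gap between the lowest listed values of the arrays, left it at 0.23. None of these settings replaces a second array, since each reuses the same pair of values. A pseudocount can neither change a sign nor move a ratio away from 0, and median centring cannot change the order. Lowering the Y27632 values can only lower a ratio, so it could not change the sign for miR-29a-3p or miR-29b-3p. Those outcomes were fixed in advance.

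**Figure D4:**
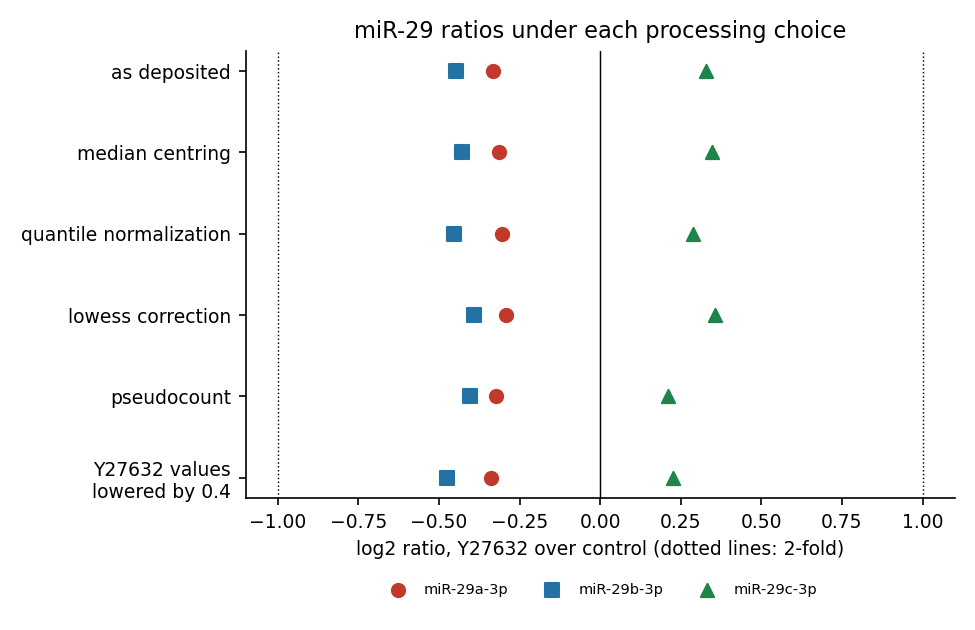
Log2 ratio of Y27632 over control for the 3 miR-29 probes as deposited and under 5 alternatives, with dotted lines at 2-fold. Every setting leaves miR-29a-3p and miR-29b-3p below 0, miR-29c-3p above 0 and all 3 short of 2-fold.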

How the data were processed

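Mature miRNAs were measured on 2 single-colour arrays, with total RNA isolated with ISOGEN and labelled with Hy5, per the labels' protocols. The deposited values are intensities, judged linear from their range; how the authors corrected background, scaled the arrays or set a detection limit is not given in the sources used here, and an empty cell is called not listed. Log2 ratios of Y27632 over control were computed from the deposited intensities without further normalization. A probe counted as apart at a ratio of at least 2-fold. Distances from the 100 probes nearest in brightness used the median absolute deviation times 1.4826 and were tested on simulated data. Alternatives were median centring of each array, quantile normalization, a pseudocount of 3, lowess (fraction 0.4), 50 or 200 neighbours, ordering by control intensity, and, chosen after seeing the data, Y27632 values lowered by 0.4. The number of arrays limits the precision.

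The members and lists were chosen with earlier results of these data known. Named were the 3 members and, by value, the 3 probes nearest to each. The reference tables held 0 lines with a MIMAT accession, so opposite arms, other matrix-linked miRNAs, cell type markers, seed families and probes of equal base composition were not evaluated. Values came from pandas 2.3.3, numpy 2.4.6, statsmodels 0.14.6 and scipy 1.17.1, and figures from matplotlib 3.10.9, under Python 3.11.15.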

Additional observations from a re-analysis of the deposited data

How the results depend on the processing

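Each of the 3 log2 ratios kept its sign under all 5 alternatives run and moved by less than the robust SD of its 100 neighbours. For miR-29c-3p that SD, 0.38, is larger than the ratio itself, 0.33, so loss of the whole ratio would also have passed. With the pseudocount it fell to 0.21. A pseudocount added to both values cannot change a sign or move a ratio away from 0, so its counts at 2-fold were fixed at 0. Lowering the Y27632 values could not change the sign for miR-29a-3p or miR-29b-3p. Median centring moved every ratio by the same small amount, for miR-29a-3p from −0.33 to −0.31. Distances in robust SDs kept their sign under all 6 alternatives: from −1.92 to −1.29 for miR-29a-3p, from −1.92 to −1.49 for miR-29b-3p and from 0.74 to 1.02 for miR-29c-3p. The distance of miR-29a-3p was nearest to 0 with 200 neighbours. Whether the wider scatter of dimmer probes accounts for this was not tested. miR-29b-3p lay farther out than miR-29a-3p with 200 neighbours and after quantile normalization, and nearer under the other 4. No member reached 2-fold in either direction under median centring, quantile normalization, lowess or the pseudocount, nor 1.5-fold as deposited, so these counts started and stayed at 0. The share of all probes at least 2-fold apart was 3.08% of those listed on both arrays and 0.385% of the brighter 50%, because most such probes were dim. With 1 array per condition, leaving out a replicate was not possible. No paired analysis was possible because there was 1 array of either kind. Low intensity limits miR-29c-3p most, and the table gives no background signal to set it against.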
